A study of Arabidopsis thaliana with 8 samples.

Results

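The loci described here are the 296 small RNA loci of the phloem exudate table that share at least 1 nt with an annotated miRNA precursor. They were chosen by position alone, from 20347 loci in the table, of which 325 are miRNA precursors (MIR, the hairpin-forming transcript) and 19994 are small RNA loci named ath-b10r1- with a running number. Together they covered 298 of the 325 precursors. A precursor and the locus around it are listed separately, so the count of the locus can be set against the count of the precursor inside it. Equal counts are what reads lying only in the stretch common to both would give. The surplus of the locus over its precursor is called extra counts below. At the 183 loci that hold the whole precursor it gives the reads in the flanking sequence. At the others, precursor reads outside the locus are subtracted too, so the extra counts are a lower bound.

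In plants, miRNA genes are transcribed into long primary transcripts that fold into hairpins. DICER-LIKE 1 cuts the hairpin into a short duplex, and one strand is loaded onto an ARGONAUTE protein, where it directs the cleavage or repression of matching transcripts. Other small RNAs, such as trans-acting siRNAs and the siRNAs of repeats, come from long double-stranded RNA and lie along extended stretches of the genome. Several miRNAs have been found in phloem sap, and some are regarded as long-distance signals of nutrient status.

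All plants were wild-type Arabidopsis thaliana of the Columbia-0 accession, and every plant grew on ½ MS medium with iron before transfer on day 11 to fresh medium without (−Fe) or with (+Fe) iron for 3 days. Phloem exudates were collected in water after EDTA treatment of cut rosettes. Each library came from pooled rosettes, the material was acellular, and the labels name 4 biological replicates per condition. Marker transcripts of phloem or other cells are not measured by a small RNA table, so the tissue label was not checked here.

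The libraries held between 10347644 and 14116739 counts in total. Where no read was counted, up to 3 counts remain possible, which is 0.213 to 0.290 CPM (counts scaled by library total). PCR copies cannot be told from separate molecules here, so such limits cover counting error only. Between 55.4% and 79.6% of all loci in the table had a count in a library, and +Fe replicates 2 and 4 were lowest, with 59.6% and 55.4%. A count was found at 228, 236, 245 and 232 of the 296 loci in −Fe replicates 1 to 4 and at 223, 219, 220 and 202 in +Fe replicates 1 to 4. All 4 −Fe libraries were above all 4 +Fe libraries in this number, while over the whole table the conditions overlapped. Coordinates are those of the deposited table, for which the labels name TAIR10, and strand is not given there.

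Locus and precursor counts were the same in each of the 8 libraries at 105 of the 296 loci (35.5%). At 145 loci (49.0%) the locus held extra counts and in no library fewer than the precursor. At 22 loci the precursor had more counts than the locus in at least 1 library, and at the other 24 both had no count. None of these 22 loci held the whole of its precursor, whereas 183 of the 296 loci did. Of the 145 loci with extra counts, 17 held under 1% of their counts outside the precursor, 24 held 1 to under 10%, 24 held 10 to under 50%, 34 held 50 to under 90%, 27 held 90 to under 100% and 19 held all of them, with no count in the precursor.

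**Figure D1:**
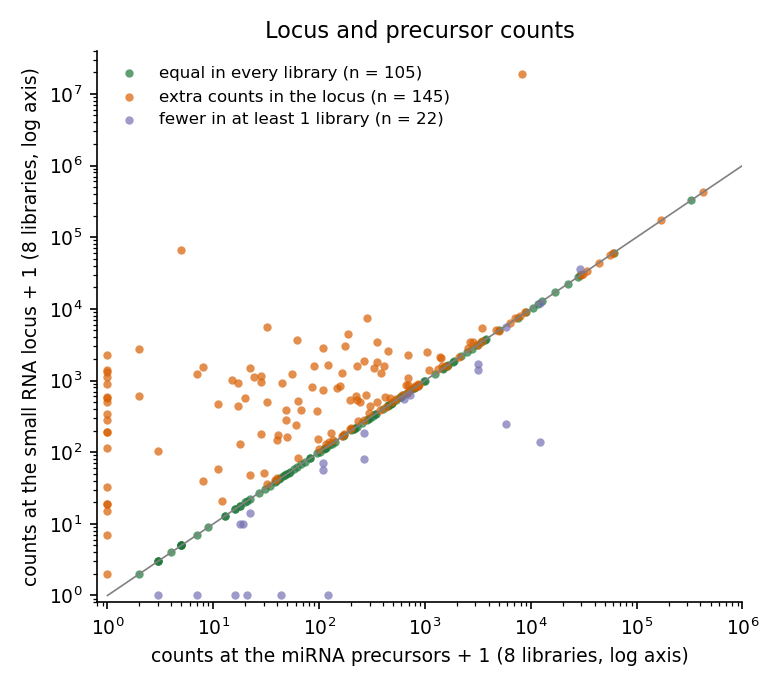
Counts summed over the 8 libraries at each small RNA locus (y axis, counts + 1, log scale) against those of the precursors it overlaps (x axis, counts + 1, log scale), with the line of equality. The 105 equal loci lie on the line, the 145 loci with extra counts on or above it, and the point far above all others is the locus of MIR5642b with 19099525 counts, while the 24 loci without counts are not drawn.

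Several abundant miRNAs were among the equal loci. The locus of MIR166a, whose miRNA targets HD-ZIP III transcription factors, covers chr2:19175945-19176517. Its counts were 33086, 41923, 35932 and 37472 in −Fe and 35714, 50983, 35630 and 56173 in +Fe, and its precursor had the same 8 values. The conditions overlapped there. The MIR157c locus (60813 counts in total, SPL transcription factors), the MIR167a locus (29300, auxin response factors), the MIR163 locus (28034, methyltransferases) and the MIR403 locus (22410, ARGONAUTE 2) were also equal to their precursors. Members of one family can share the mature sequence, as MIR166a and MIR166e do, so the split of counts between family copies is uncertain.

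The role lists used here group miRNAs by target or response and leave out some with known targets, such as MIR824 and MIR472. A precursor on these lists lay at 101 of the loci, and 89 of those loci had counts. Of these 89, 62 were equal, 24 held extra counts and 3 had fewer counts in some library, and the extra counts came to 0.218% of all their counts. All 5 loci of miRNAs that target the silencing machinery (MIR162, MIR168, MIR403) were equal, as were the 4 loci of the tasiRNA triggers MIR173, MIR390 and MIR828 and the 4 loci of MIR393 and MIR394, which target F-box proteins. Of the 12 counted MIR156 and MIR157 loci, 9 were equal, and the other 3 held 21 extra counts among 114284. Of the 177 counted loci with no precursor on these lists, 43 were equal, 121 held extra counts and 13 had fewer. Their median share of extra counts was 30.2%, against 0% over the listed loci. The loci off the lists were also longer, with a median of 725 nt against 256 nt. Lists and length were not separated here.

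Small surpluses at strongly counted loci were common. The MIR158a locus, of a miRNA directed at pentatricopeptide repeat (PPR) transcripts, had 428250 counts, of which 18 lay outside the precursor, all in +Fe replicate 3. The MIR159a locus had 2 extra counts among 171691, and the MIR398b locus had 14 among 44064. At 43 loci, with a median of 497 counts per locus and 38 of them with counts in the precursor, the extra counts numbered at most 20. At 24 loci they came from 1 library alone, with a median of 5 counts, and at 74 loci from all 8 libraries, with a median of 882.

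Some listed loci departed from this pattern, with at least 1% extra counts at 10 of them and at least 50% at 3. The 3 counted loci of MIR170 and MIR171, which target SCL transcription factors, held 232 extra counts among 1927, and none was equal. At MIR172b the only count lay outside the precursor. The other 2 loci with at least 50% were those of MIR395c and MIR397a. The MIR395c locus, whose miRNA targets sulfate assimilation transcripts, spans 6770 nt (chr1:9367092-9373861) and overlaps a pseudogene. It held 236, 359, 230 and 149 extra counts in −Fe and 357, 144, 238 and 422 in +Fe, 2135 of its 2579 counts, and the conditions overlapped. The MIR397a locus (chr4:2625935-2626360), whose miRNA targets laccases, overlaps ENT6, a nucleoside transporter gene. Its extra counts were 58, 80, 67 and 41 in −Fe and 59, 110, 90 and 124 in +Fe, 629 of 737 in all, so that its precursor carried only 108 counts.

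Longer loci held more extra counts. Of the 132 counted loci of up to 500 nt, 88 were equal (66.7%), against 17 of 77 (22.1%) between 500 and 2000 nt and 0 of 57 above 2000 nt. The median share of extra counts was 0%, 16.2% and 92.8% in these classes. Loci over a pseudogene had a median length of 6891 nt, and 30 of the 35 with counts held at least 50% extra, whereas 79 of the 143 loci over neither a protein-coding gene nor a pseudogene were equal, at a median length of 307 nt. Length and the kind of gene went together, so the kinds were also counted within each length class, where a locus over both kinds of gene counts under both. Up to 500 nt, 67 of 95 loci over neither kind were equal, against 20 of 31 over a protein-coding gene and 1 of 6 over a pseudogene. Above 2000 nt no locus was equal in any kind, and at least 50% of the counts were extra at 12 of 13 loci over neither kind, 22 of 26 over a protein-coding gene and 26 of 26 over a pseudogene.

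**Figure D2:**
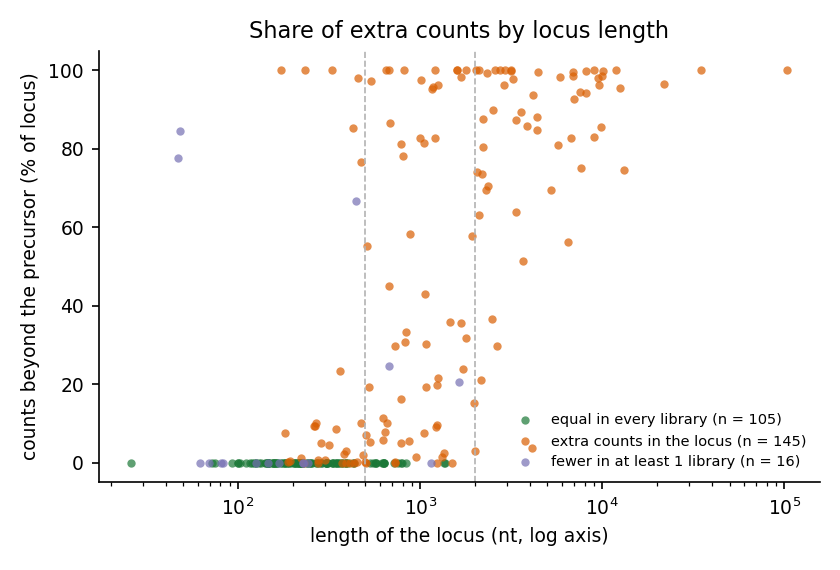
Share of the counts of each counted locus that lay beyond its precursors (y axis, %) against the length of the locus (x axis, nt, log scale), with dashed lines at 500 and 2000 nt. No locus above 2000 nt was equal to its precursor, and the median share there was 92.8%.

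Per length, the precursor was usually the denser stretch. Among the 124 loci with extra counts that hold the whole precursor, the precursor had more counts per kb than the flanks at 91 and fewer at 33. All 35 of these loci with under 10% extra counts and all 23 with 10 to under 50% were denser in the precursor. The sort by extra share nearly fixes this, as most counts then lie in the precursor. The flanks of these loci, at a median of 356 and 961 nt, were mostly the longer stretch. Of the 66 loci with at least 50% extra counts, 33 were denser in the precursor and 33 in the flanks. At 15 of the latter the precursor had no count, which fixed their place in advance. The MIR4228 locus shows the first kind, with 21804 counts per kb in the precursor and 1258 per kb in the flanks, over 8 libraries. The MIR5652 locus shows the second, with 627 per kb in the precursor and 8994 per kb outside it.

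3 loci held most of the extra counts. The locus of MIR5642b (chr2:1476-11521, 10046 nt) overlaps 2 rRNA genes. It had 19099525 counts, 91.6% of the 20849879 counts of all 296 loci, of which 8282 lay in the precursor. In the 8 libraries its precursor held 1148, 1445, 794 and 647 counts in −Fe and 1419, 838, 1063 and 928 in +Fe, while the locus ranged from 1887308 to 3239957. Its count is therefore almost wholly a count of reads outside the hairpin. Among the other 295 loci the extra counts came to 161835 (9.25% of their counts), and the loci of MIR5029 and MIR5642a held 45.2% of these.

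The MIR5029 locus is the longest, with 103235 nt (chr5:12235237-12338471), and overlaps many pseudogenes. It had 7228, 8194, 8046 and 12162 counts in −Fe, against 5567, 6187, 7892 and 10538 in +Fe, and its precursor had 4 counts, all in +Fe replicate 1. The locus of MIR5642a (chr3:14195448-14197086) ends within its precursor, 83.7% of which it covers, and the next locus, 113 nt further on, is the most counted of the table with 23204175 counts. The MIR5642a locus held 40.2%, 0%, 5.78% and 7.37% extra counts in −Fe and 23.3%, 22.4%, 24.0% and 38.7% in +Fe. In −Fe replicate 2 the precursor had 3934 counts against 3596 in the locus, so some precursor reads lay outside the locus. These shares are therefore lower bounds of the flanking share. As computed, the −Fe libraries lay on both sides of the +Fe libraries.

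Some extra counts belonged to transcripts that the table also lists by name. The MIR5636 locus (chr1:18547706-18550046) encloses TAS1b, a source of trans-acting siRNAs that are made after cleavage by miR173. TAS1b was counted 776, 893, 609 and 381 times in −Fe and 640, 715, 749 and 521 times in +Fe, against 803, 938, 632 and 392 and 691, 790, 776 and 559 extra counts of the locus in the same order. The precursor held 31 of the 5612 counts of the locus. It lies within TAS1b as listed, so the counts of TAS1b can include those of the precursor. The MIR5652 locus (chr1:23412705-23413958) lies on a listed PPR gene, At1g63130, which had 7986 counts, against 7530 for the locus and 281 for its precursor. That precursor too lies within the listed gene. The 18 counts of the MIR3933 locus were all outside the precursor and matched the 18 of the listed gene SLG library by library.

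At 19 loci the precursor had no count in any library and every count lay outside it. The locus of MIR8167d, 2727 nt long, had 221, 287, 263 and 155 counts in −Fe, against 388, 224, 477 and 222 in +Fe. Those of MIR5013 and MIR5660 had 1382 and 1293 counts over the 8 libraries. For these 19 loci, 9762 counts in total, the count says nothing of the miRNA inside, for which 0 counts allow up to 3 in each library.

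The share of extra counts was then compared between −Fe and +Fe. Over all 296 loci, extra counts were 92.8%, 90.2%, 93.5% and 93.9% of the locus counts in −Fe and 93.6%, 90.3%, 92.6% and 90.3% in +Fe, or 92.6% ± 1.66 and 91.7% ± 1.68 (SD, n = 4). Without the rRNA locus of MIR5642b they were 8.85%, 9.12%, 10.1% and 10.6% in −Fe and 7.64%, 7.87%, 10.9% and 9.26% in +Fe, or 9.69% ± 0.841 and 8.92% ± 1.50 (SD, n = 4). In both forms the conditions overlapped and their difference, 0.893 and 0.770 percentage points, was smaller than the larger SD. Without the 2 +Fe libraries with the fewest loci the first difference was −0.521 percentage points, of the opposite sign.

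**Figure D3:**
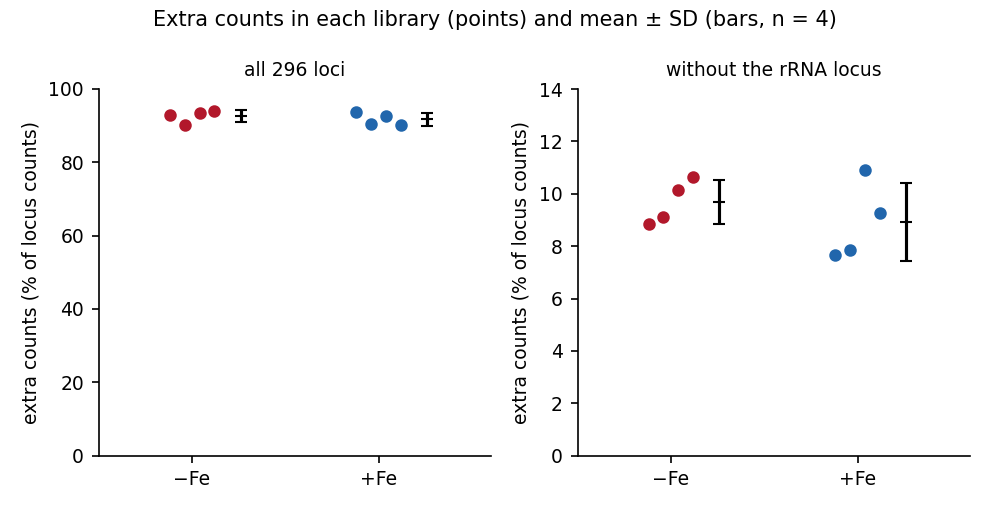
Extra counts as a percentage of the locus counts in each library (points), with the mean and SD of 4 libraries (bars), for all 296 loci on the left and without the locus of MIR5642b on the right (both axes from 0). The −Fe and +Fe libraries overlap in both panels, at 90.2% to 93.9% on the left and 7.64% to 10.9% on the right.

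Among single loci, the share was tested at the 10 loci with the most extra counts, by an exact two-sided permutation test in which 4 against 4 libraries cannot go below p = 0.0286. None of the 10 p-values was under 0.05, and at MIR5642a the tested share is only the lower bound given above. The smallest in this exact test, p = 0.0571, was that of the MIR5652 locus on the PPR gene, where extra counts were 95.7%, 96.6%, 92.6% and 93.5% in −Fe and 96.7%, 98.0%, 96.1% and 99.9% in +Fe (94.6% ± 1.88 and 97.7% ± 1.67, SD, n = 4). −Fe replicate 2 lay above +Fe replicate 3, so the conditions overlapped.

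No locus was called between −Fe and +Fe by the quasi-likelihood test of edgeR (Benjamini-Hochberg adjusted p under 0.1 and log2 fold changes of 0.5 or more up or down, 251 of the 296 loci tested, 0% of all 17722 tested loci called, smallest adjusted p = 0.645). At an unadjusted p under 0.05 there were 17 of the 251 loci, 14 higher and 3 lower in −Fe, close to the background of 6.69% of all tested loci (4.86% higher and 1.83% lower). With library totals in place of TMM factors the 17 became 15, 10 higher and 5 lower. DESeq2 called 34 loci (0.192%), of which 1 was among the 251, the locus of MIR857 described below. The same test of the flanking counts alone called none of the 129 flanks tested (0% of 17600), and 6 flanks had p under 0.05 against a background of 6.7% (4.84% higher and 1.86% lower). All 6 were higher in −Fe, and with library totals there were 8, 4 in each direction. Of the 6, all but the flank of MIR2936 had no count in any +Fe library. DESeq2 called 26 entries of that table (0.148%) and no flank. Log2 fold changes below are −Fe over +Fe.

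The 3 smallest p-values belonged to the loci of precursors that are each covered by 2 loci. MIR5640 (chr1:1653221-1653624, 404 nt) lies in CALS1, which encodes a callose synthase. The locus over its lower-coordinate part (chr1:1653125-1653366) had 18, 13, 10 and 15 counts in −Fe and 0 in all 4 +Fe libraries. Its mean CPM was 4.65-fold higher in −Fe when 3 counts stand for each 0 of +Fe. Over the higher-coordinate part of MIR5640 (chr1:1653483-1654159) the locus had 0 in all 4 −Fe libraries and 18, 23, 28 and 0 in +Fe. Its mean CPM was 5.58-fold lower in −Fe when 3 counts stand for each 0 of −Fe. The 2 stretches thus had opposite patterns, without overlap for the first, while the precursor as listed was counted 18, 13, 10 and 15 times in −Fe and 18, 23, 11 and 0 times in +Fe, which overlapped.

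The unadjusted p-values of the 2 MIR5640 loci were 0.00659 and 0.0101 (edgeR, adjusted p = 0.645 for both), so neither was called. Of the 28 counts at the higher-coordinate locus in +Fe replicate 3, 17 lay outside the precursor. Counts are few, at 56 and 69 over the 8 libraries. The fold values allow for counting error only in the condition with 0 in all 4 libraries.

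MIR857, a copper-responsive miRNA that targets a laccase transcript, is annotated over 377 nt, and all of its 81 counts lay in a locus of 26 nt (chr4:7878195-7878220). That locus had 33, 25, 4 and 18 counts in −Fe, against 0, 1, 0 and 0 in +Fe, and the conditions did not overlap. Scaled by library totals, the 80 counts of −Fe against 1 of +Fe give a ratio of 80.1, with an exact 95% interval of 13.97 to 3202 that covers counting error only. The test of edgeR gave an unadjusted p-value of 0.00743 and an adjusted p of 0.645, and DESeq2 gave an adjusted p of 0.0932. The neighbouring locus (chr4:7878525-7878750) touches 37 nt of MIR857 but held none of its counts, and its 551 counts were those of MIR397b, library by library.

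In all, 12 precursors were covered by 2 loci, separated by 74 to 500 nt. At 5 of them the counts of both loci added up to the precursor in every library. MIR167d (12202 and 137 counts, 12339 in the precursor), MIR824 (243 and 5584, 5827), and MIR846 (186 and 79, 265) had counts at both loci, while MIR167c (20) and MIR853 (15) had them at one. At MIR472, whose miRNA targets resistance gene transcripts, the loci had 1721 and 1419 counts against 3137 in the precursor. Which arm of the hairpin is the 5′ arm cannot be read from the table, so the loci are named by coordinate.

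The balance between both loci varied among these precursors. The lower-coordinate locus held 99.3% ± 0.863 (SD, n = 4) of the counts of MIR167d in −Fe and 98.6% ± 1.23 in +Fe. For MIR472 it was 59.4% ± 12.6 and 52.6% ± 10.3, and for MIR824, which targets the MADS-box gene AGL16, 4.45% ± 4.09 and 5.89% ± 3.63. MIR846, which targets jacalin lectin transcripts, had the widest spread of these 4, 75.6%, 38.1%, 52.6% and 60.0% in −Fe and 42.9%, 94.1%, 82.4% and 100% in +Fe. The exact two-sided permutation p-values (n = 4 per condition) were 0.429, 0.429, 0.571 and 0.171 in that order, and the conditions overlapped in each. These 4 precursors were chosen after their counts were seen.

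**Figure D4:**
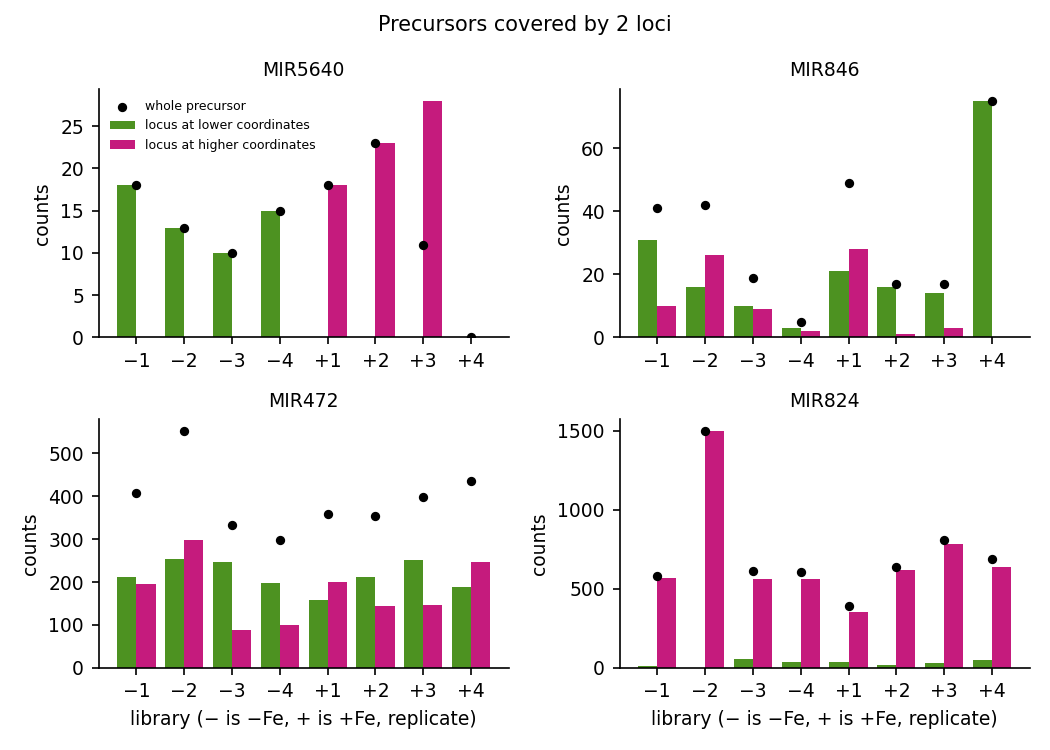
Counts in each library (y axis, counts, from 0) at the lower-coordinate and the higher-coordinate locus (bars) and at the whole precursor (points) of MIR5640, MIR846, MIR472 and MIR824, with −Fe replicates 1 to 4 on the left and +Fe replicates 1 to 4 on the right of each panel. At MIR5640 the lower locus has 18, 13, 10 and 15 counts in −Fe and 0 in +Fe, and the higher locus 0 in −Fe and 18, 23, 28 and 0 in +Fe.

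A different structure was a locus around several precursors. 12 loci held 2 precursors and 1 held 3. The locus of MIR400, which targets PPR transcripts, and MIR5654 (chr1:11785806-11786559) was counted 398, 646, 611 and 421 times in −Fe and 459, 443, 530 and 172 times in +Fe, in every library the sum of both precursors. Its log2 fold change was 0.57 ± 0.265 (SE, unadjusted p-value of 0.0406 by edgeR, adjusted p = 0.645). MIR400 itself had 251, 608, 515 and 338 counts in −Fe, against 392, 441, 472 and 170 in +Fe, and MIR5654 had 147, 38, 96 and 83 and 67, 2, 58 and 2, so that the share of each precursor in the locus changed from library to library.

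The locus with 3 precursors (chr4:7842907-7847037) holds MIR5026, MIR850 and MIR863. It was counted 1400, 1669, 783 and 1305 times in −Fe and 1377, 871, 884 and 841 times in +Fe, 338 of 9130 outside the precursors, with a log2 fold change of 0.57 ± 0.241 (SE, unadjusted p-value of 0.0254 by edgeR, adjusted p = 0.645). MIR5026 supplied 6935 of these counts, MIR863 1303 and MIR850 554. MIR863 ranged from 102 to 242 counts in −Fe and from 41 to 265 in +Fe, so the 2 conditions overlapped at the locus and at this precursor.

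Of the other loci with p under 0.05, several were counted in −Fe alone. The MIR830 locus, equal to its precursor, had 25, 8, 3 and 6 counts in −Fe, against 0 in +Fe (unadjusted p-value of 0.0124 by edgeR). With 3 counts for each 0 of +Fe its mean CPM was 3.65-fold higher in −Fe. This value rests mainly on −Fe replicate 1, while −Fe replicate 3 had no more than the 3 counts that a 0 allows. The MIR3440b locus was counted 0, 15, 4 and 24 times in −Fe and 0 times in +Fe (unadjusted p-value of 0.0164 by edgeR). At 9 of the 17 loci no +Fe library had more than 3 counts, and at 1 of them no −Fe library had. The same split was not counted over all tested loci, so it cannot be read as particular to these loci. Such loci pass the filter of 10 counts mainly through the libraries of 1 condition. Fold changes fitted by edgeR at such loci are not determined by the counts, and all adjusted p-values were 0.645.

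Strongly counted loci among the 17 had smaller differences. The MIR775 locus, whose miRNA targets a galactosyltransferase transcript, had 180, 237, 205 and 198 counts in −Fe, against 135, 70, 232 and 126 in +Fe (log2 fold change 0.79 ± 0.317, SE, unadjusted p-value of 0.0198 by edgeR, adjusted p = 0.645). 3 of the 4 +Fe libraries were below every −Fe library, and +Fe replicate 3 was above all but 1 of them. Of the 1383 counts of the MIR775 locus, 298 lay outside the precursor, and the locus also overlaps a gene of a small nucleolar RNA. The precursor alone had 162, 212, 127 and 126 counts in −Fe and 130, 70, 139 and 119 in +Fe, which overlapped. Its log2 fold change was 0.65 ± 0.338 (SE, unadjusted p-value of 0.0661 by edgeR, adjusted p = 0.645). The MIR8172 locus was the reverse, with 89, 162, 132 and 120 counts in −Fe and 185, 183, 177 and 391 in +Fe (−0.75 ± 0.331, unadjusted p-value of 0.0318 by edgeR, adjusted p = 0.645), and the conditions did not overlap in counts.

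In the flanks, the smallest p was that of the MIR5024 locus (chr1:16766072-16767532). Its extra counts were 24, 5, 3 and 22 in −Fe and 0 in all 4 +Fe libraries (unadjusted p-value of 0.00718 by edgeR, adjusted p = 0.642). The MIR2936 locus held most of its counts in the flanks, 1174 of 1500, with a log2 fold change of the flanks of 0.76 ± 0.346 (SE, unadjusted p-value of 0.0372 by edgeR, adjusted p = 0.642). The flanks of MIR169a, MIR5656, MIR3933 and MIR5633 had 32, 14, 18 and 18 counts, all of them in −Fe libraries. Like the flank of MIR5024, these passed the filter of 10 counts through −Fe libraries alone.

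Fold changes of locus and precursor were set side by side where both could be tested. At 99 equal pairs both had the same direction, which equal counts fix wherever the locus holds a single precursor. At the 44 pairs with under 10% extra counts, where locus and precursors share most counts, all had the same direction. The median difference there was 0.03 on the log2 scale. At 10 to under 50%, 23 of 24 pairs had the same direction. At 50% or more, 38 pairs had the same direction and 17 opposite directions, with a median difference of 0.95. Precursor counts were few at such loci, with medians of 152.5 at 50 to under 90% extra and 27 at 90 to under 100%. The directions of many of these precursors are therefore uncertain. At the 15 pairs whose locus had fewer counts than the precursor in some library, 7 had the same direction and 8 opposite directions, with a median difference of 0.45, and these include both loci of MIR5640. Among the pairs with 50% or more extra counts the widest gap was at MIR5020b. Its precursor was counted 34, 27, 1 and 0 times in −Fe and 0 times in +Fe (unadjusted p-value of 0.00977 by edgeR, adjusted p = 0.645). With 3 counts for each 0 of +Fe the mean CPM of the precursor was 5.36-fold higher in −Fe. This value rests on −Fe replicates 1 and 2 and leaves out their counting error. The locus had 77, 123, 77 and 36 in −Fe and 57, 6, 89 and 59 in +Fe (log2 fold change 0.76 ± 0.622, SE, unadjusted p-value of 0.231 by edgeR). The conditions overlapped at the locus, and at the precursor −Fe replicate 4 had 0 counts, as did +Fe.

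**Figure D5:**
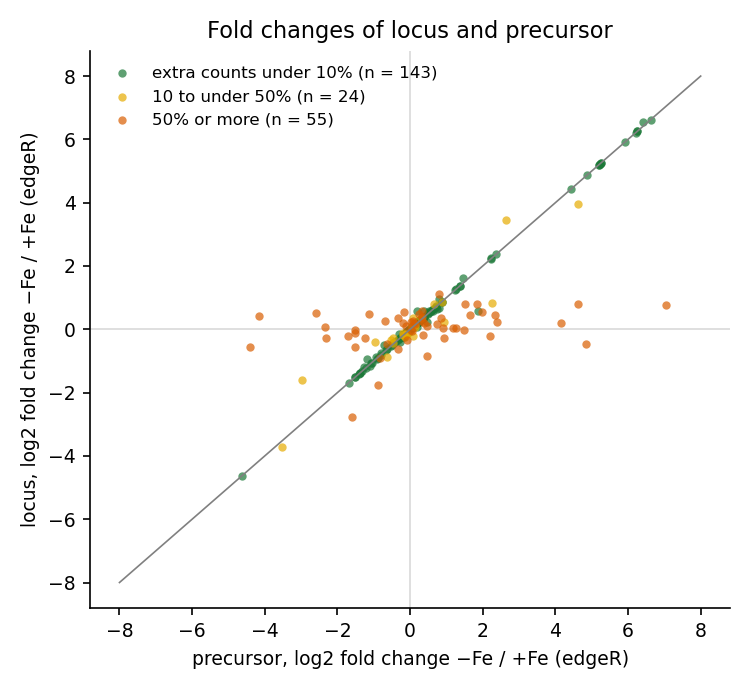
Log2 fold change (−Fe over +Fe, edgeR) of each locus (y axis) against that of its precursor (x axis), coloured by the share of extra counts, with the line of equality. Pairs with under 10% extra counts mostly lie along the line, as locus and precursors share most counts there. Of the 55 pairs with 50% or more, many with few precursor counts, 17 have opposite signs.

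The copper-responsive miRNAs combined these cases. The MIR398a and MIR398c loci were equal to their precursors, the MIR398b and MIR408 loci held 14 of 44064 and 19 of 7964 counts outside, and MIR397a and MIR857 were as given above. MIR398b and MIR398c carry the same mature miRNA. The MIR398c locus had 238, 769, 300 and 279 counts in −Fe, against 342, 553, 549 and 382 in +Fe. The MIR408 locus was counted 1062, 1424, 410 and 704 times in −Fe and 1020, 1102, 1126 and 1116 times in +Fe, and the conditions overlapped at both loci.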

How the data were processed

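Phloem exudate small RNA of 4 −Fe and 4 +Fe libraries was analysed, grouped by the labels. Per the study's methods, the authors trimmed adapters using Cutadapt and kept reads of any length, and ShortStack served for alignment and quantification. They deposited raw read counts per locus, and versions are not given in the sources used here. All 8 library columns were used (0 columns unused), but not the column of sums.

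Loci overlapping a precursor by at least 1 nt were taken, and overlapping precursors of one locus were counted once, by the higher count. Extra counts are those of the locus minus those of its precursors, set to 0 where negative. Genes were named from the TAIR10.1 table. The fit used edgeR 4.0.16 (limma 3.58.1, R 4.3.3) with TMM factors of 0.743 to 1.17, on all loci with at least 10 counts over 8 libraries. For flanks, each locus was replaced by its extra counts. DESeq2 1.42.0 was an alternative. CPM used library totals. Replicates with one number were not paired (correlations of −0.00185 to 0.0492). Python 3.11.15 with scipy 1.17.1 gave exact permutation tests. Scripts were tested on simulated data.

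The loci and role lists were chosen with earlier results of these data known. Named loci were the 10 with the most counts, most extra counts, or largest extra share among those with at least 100 counts, the 5 with the smallest p in each direction, those of MIR397, MIR398, MIR408, MIR857, MIR830, MIR5020b and MIR5998, and the 5 most counted with several precursors. Others were chosen after their values were seen.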

Additional observations from a re-analysis of the deposited data

Results flagged for a closer look

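Dixon's test at the 95% level was applied to 36 groups of 4 libraries, of library-wide values, extra shares and shares of 2-locus precursors, and marked 6 of them as holding a library far from the others. All were extra shares. They were +Fe replicate 1 at the MIR5029 locus (99.9%), +Fe replicate 4 at the MIR5642a locus (38.7%), +Fe replicate 3 at the MIR5636 locus (98.4%), +Fe replicate 2 at the MIR406 locus (72.8%), +Fe replicate 3 at the MIR5647 locus (97.5%) and −Fe replicate 3 at the MIR426 locus (99.7%). At MIR5029, MIR5636, MIR5647 and MIR426 the other 3 libraries of the group were at 100%, so that any lower value there is marked whatever its size. The rate of about 1 in 20 that chance gives therefore applies only to groups without such a ceiling. At MIR406, 158 of the 186 precursor counts came from +Fe replicate 2.

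Of the 27 precursors that no small RNA locus overlaps, 23 had no count. Signal outside the loci compared was found at MIR395b, with 526 counts, and at MIR447c and MIR5631, with 7 each, above the 3 counts that a count of 0 allows. MIR395b had 25, 286, 7 and 6 counts in −Fe and 46, 107, 33 and 16 in +Fe.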

How the results depend on the processing

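The number of equal loci, 105, was 101 to 122 with other definitions and 103 to 110 without each library, but 53 where the whole precursor had to lie in the locus, which leaves 183 loci. Loci with p under 0.05 went from 17 to 6 and flanks from 6 to 1 with the filterByExpr filter, which tests 207 loci and 89 flanks, and flanks were 2 to 7 without each library in turn, with 2 without −Fe replicate 3 and 3 without +Fe replicate 2. DESeq2 called 1 locus (MIR857). With the replicate number as a block, 14 loci had p under 0.05, no locus was called, and 1 flank was, that of MIR5642a (log2 fold change −2.39, adjusted p = 4.97e-16). The extra counts of MIR5642a are lower bounds, set to 0 in −Fe replicate 2. The replicate numbers did not pair the libraries, and the cause was not tested. Library totals moved the median log2 fold change of all loci from 0.07 to −0.12. An adjusted p of 0.05 gave no call. Without +Fe replicates 2 and 4, chosen after seeing the data, 1 locus was called, that of MIR780 (99, 20, 20 and 87 counts in −Fe and 1, 53, 1 and 1 in +Fe, adjusted p = 0.0250), and log2 fold changes turned positive at MIR408 (0.035), MIR398c (0.073), MIR781a and MIR781b (0.35), MIR833a and MIR833b (0.49), MIR397a (0.033) and MIR397b (0.048). Without single libraries they ranged from −0.32 to 0.14 at MIR408, −0.41 to 0.061 at MIR398c, −0.35 to 0.23 at MIR781a and MIR781b and −0.66 to 0.025 at MIR833a and MIR833b.

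Depth limits loci with few counts, and the common dispersion of 1.11 limits what 4 against 4 libraries can call. Strand, read length and multiple mapping are not in the table, so extra counts can hold reads shared with other copies.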
